A study of Mus musculus with 6 samples.

Results

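Rps6ka genes encode a family of serine/threonine kinases that sit at the lower end of the MAP kinase cascades. The members were the 6 gene symbols Rps6ka1 to Rps6ka6, and their probe sets were all those that the platform annotation gives to 1 of these symbols alone. That rule found 3 genes of the 18193 on the array, with 8 probe sets of 45037 (array controls left out): 3 of Rps6ka3, 3 of Rps6ka5 and 2 of Rps6ka6. Rps6ka1, Rps6ka2 and Rps6ka4 had 0 probe sets under the rule and are not analysed here. The family was chosen by the fluoxetine and vehicle values of these same arrays, in which 1 probe set of Rps6ka6 stood among those with the smallest unadjusted p, so the members' differences between the groups are given as a description and support nothing.

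The study compared 3 arrays from S100a10 bacTRAP mice that drank fluoxetine, a serotonin reuptake inhibitor (0.167 mg/ml in 1% saccharine), with 3 arrays from mice of the same line that drank 1% saccharine alone as vehicle, in both groups for 15 to 18 days. All mice carried the S100a10 bacTRAP transgene (line ES691) on a background moved from FVB to C57BL/6 by 3 to 5 generations of backcrossing, so no array comes from mice without the transgene. Cells in which the S100a10 control region is active carry a tag on their ribosomes in these mice; S100a10 encodes p11, a protein that binds serotonin receptors. RNA bound to the tagged ribosomes was purified from cortex, and 15 ng per sample went through a 2-cycle amplification onto 1-colour arrays. The submitters call the samples independent replicates, but the age and sex of the mice and whether each sample pooled several are not given in the sources used here. Every SD below is therefore the spread between these samples, and their small number limits its precision. Each SE and interval comes from the linear model package limma, which draws a probe set's variance towards a value shared by all probe sets. An SE can thus be smaller or larger than the probe set's own arrays would give. The S100a10 control region labels some cells other than neurons, as the submitters state, and in such bulk RNA fewer labelled cells of a type and less RNA per cell cannot be told apart.

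The 3 measured genes fall into both branches of the family. RSK kinases, here Rps6ka3 (RSK2) and Rps6ka6 (RSK4), phosphorylate proteins of translation, survival and transcription. RSK2 is switched on by ERK and by the phosphoinositide-dependent kinase PDK1. MSK kinases, here Rps6ka5 (MSK1), are nuclear, answer to both ERK and p38, and phosphorylate the transcription factor CREB and histone H3. In neurons both branches link synaptic activity and neurotrophin signals to transcription, and in humans loss of RPS6KA3 causes Coffin-Lowry syndrome, an X-linked intellectual disability. GCRMA intensities depend on each probe's own affinity, so levels are compared between arrays and not between probe sets. A gene's probe sets are numbered here from the brightest. For Rps6ka6 they are 1429759_at and 1429760_at. For Rps6ka3 they are 1455206_at, 1427299_at and 1452383_at. For Rps6ka5 they are 1440343_at, 1431050_at and 1439004_at.

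Arrays were alike as a whole, with pairwise correlations of 0.980 to 0.992 across the tested probe sets. Of the 10 markers fixed for S100a10 neurons of layer 5, 8 were annotated and all 8 were above the filter, among them S100a10 at 15.08 ± 0.09 on the fluoxetine arrays and 15.15 ± 0.07 on the vehicle arrays (log2 intensity, SD, n = 3 each). Of markers of other cells, median differences in log2 were 0.14 for 6 microglial genes, −0.03 for 7 endothelial, −0.37 for 6 pericyte, 0.06 for 10 meningeal and −0.12 for 8 interneuron genes, with 0 called in each list. Because Rps6ka3 and Rps6ka6 are X-linked, sex-linked transcripts were looked up too: Xist was below the filter on every array, and the brighter probe set of the Y-linked gene Eif2s3y read 10.53 to 10.72 with fluoxetine and 10.39 to 11.02 with vehicle.

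Rps6ka6 was higher on the fluoxetine arrays by 1 of its 2 probe sets and less so by the other. RefSeq lists 2 transcription starts for the gene, 74462 bases apart on chromosome X, and the annotation gives both probe sets the same source sequence without tying either to a start. The 250 bases before each start are shown because Rps6ka6 is the member with the largest difference and its starts differ in base composition (RefSeq, GRCm38.p6, minus strand, read 5′ to 3′). The window before the upstream start lies at chrX:111537960-111538209 and that before the downstream one at chrX:111463498-111463747, with capitals marking the motif letters found.
Rps6ka6 upstream start: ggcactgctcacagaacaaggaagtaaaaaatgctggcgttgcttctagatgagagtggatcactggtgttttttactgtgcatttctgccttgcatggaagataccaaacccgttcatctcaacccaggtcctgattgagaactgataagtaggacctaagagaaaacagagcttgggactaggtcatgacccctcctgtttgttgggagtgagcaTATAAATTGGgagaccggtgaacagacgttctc
Rps6ka6 downstream start: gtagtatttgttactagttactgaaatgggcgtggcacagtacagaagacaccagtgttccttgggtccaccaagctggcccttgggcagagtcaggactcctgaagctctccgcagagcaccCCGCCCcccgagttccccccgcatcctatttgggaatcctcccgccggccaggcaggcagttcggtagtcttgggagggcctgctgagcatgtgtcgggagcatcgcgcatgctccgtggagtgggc

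Both strands were searched for TGACGTCA (the cyclic AMP response element that CREB binds), TGACG (its shorter form, contained in the first), TATAAA (the TATA box), CCAAT (the CCAAT box) and GGGCGG (the GC box). Before the upstream start lay TATAAA, beginning 33 bases before it, and a reverse CCAAT beginning 28 bases before it, which overlap in 1 base. Before the downstream start lay a reverse GGGCGG, beginning 127 bases before it. Of all 32851 RefSeq promoter windows of this length, 12.4% held TATAAA, 33.8% CCAAT and 32.7% GGGCGG, while 17.8% held TGACG and 1.55% TGACGTCA, neither of which is in these windows. The upstream window had 4 CG pairs and 46.4% G and C, and the downstream one 12 and 60.8%.

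Probe set 1 of Rps6ka6 read 263, 140 and 216 on fluoxetine arrays 1 to 3, against 86.4, 115 and 83.7 on vehicle arrays 1 to 3 (GCRMA intensity on a linear scale). On the log2 scale these values were 8.04, 7.13 and 7.76 with fluoxetine and 6.43, 6.85 and 6.39 with vehicle. Every fluoxetine array was above every vehicle array, but the nearest pair, fluoxetine 2 and vehicle 2, lay closer together than fluoxetine 2 and fluoxetine 1. Mean log2 values were 7.64 ± 0.46 on the fluoxetine arrays and 6.56 ± 0.26 on the vehicle arrays (SD, n = 3 each). The difference was 1.08 ± 0.25 (log2, SE), or 2.12-fold. Its spread within groups was wide, with a residual SD of 0.37, at the 87.9th percentile of all tested probe sets.

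Probe set 2 of Rps6ka6, built on the same source sequence, read 6.68, 6.45 and 6.28 with fluoxetine and 6.29, 6.43 and 5.81 with vehicle (log2). These groups overlapped: fluoxetine 3 was below vehicle 1 and vehicle 2. The difference was 0.30 ± 0.19 (log2, SE), and its 95% interval ran from −0.15 to 0.74. Both probe sets of Rps6ka6 were highest on fluoxetine 1 and lowest on vehicle 3, but they placed fluoxetine 2 and fluoxetine 3 in opposite order. This second probe set was dim, its vehicle mean of 6.17 lying little above the filter of 50 (5.64 in log2), and without vehicle 3 its difference was 0.116.

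**Figure D1:**
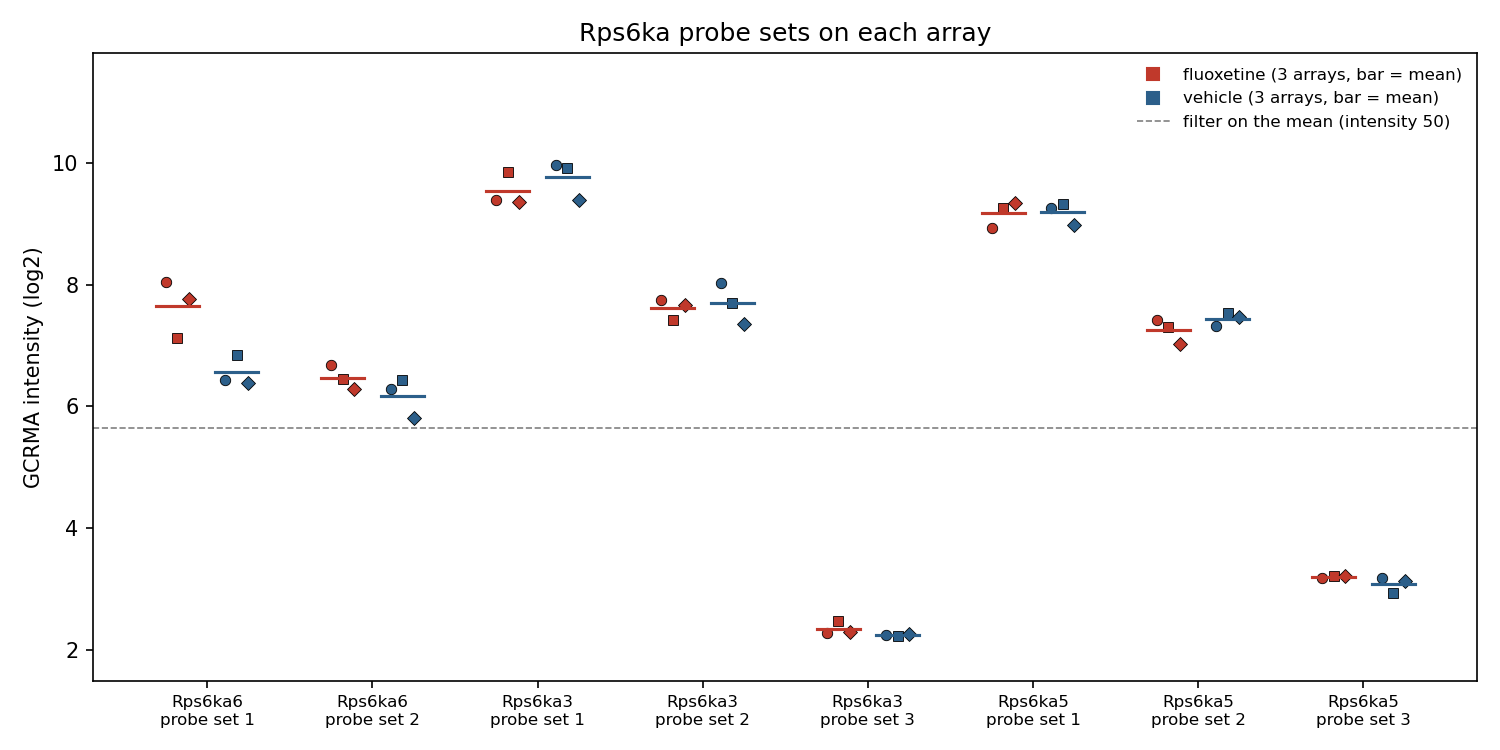
Log2 GCRMA intensity of the 8 Rps6ka probe sets on each array (circle, square and diamond for arrays 1, 2 and 3; horizontal bars, group means; dashed line, the filter of 50). Probe set 1 of Rps6ka6 has all fluoxetine arrays (7.13 to 8.04) above all vehicle arrays (6.39 to 6.85), and the groups overlap in the 5 other probe sets above the line.

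Rps6ka3, the RSK whose human counterpart is the Coffin-Lowry gene, was not higher with fluoxetine by either probe set above the filter. Its brightest, probe set 1, read 9.39, 9.84 and 9.36 with fluoxetine and 9.96, 9.92 and 9.39 with vehicle (log2). Fluoxetine 1, fluoxetine 3 and vehicle 3 lay at or below 9.39 and the other 3 arrays at or above 9.84, so each group held both low and high arrays. The difference was −0.22 ± 0.20 (log2, SE; 95% interval −0.70 to 0.26), and −0.406 without vehicle 3, −0.378 without fluoxetine 2 and −0.123 without vehicle 1.

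The other tested one, probe set 2, read 7.74, 7.41 and 7.67 with fluoxetine and 8.03, 7.69 and 7.35 with vehicle. The fluoxetine values lay inside the vehicle range, and the difference of −0.09 ± 0.19 (95% interval −0.54 to 0.37) had no settled sign, since it was 0.085 without vehicle 1 and 0.014 without fluoxetine 2. Probe set 3 of Rps6ka3 shares its source sequence with probe set 2 but read only 2.28, 2.47 and 2.30 with fluoxetine and 2.25, 2.23 and 2.27 with vehicle, below the filter. Its groups did not overlap, the nearest arrays being fluoxetine 1 at 2.28 and vehicle 3 at 2.27. Among the 22711 probe sets below the filter 37.4% had groups that did not overlap and 72.6% were higher with fluoxetine.

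Rps6ka5, an MSK, did not differ between the groups beyond the spread of its arrays. Probe set 1 of Rps6ka5 read 8.92, 9.26 and 9.34 with fluoxetine and 9.26, 9.32 and 8.97 with vehicle (log2). Fluoxetine 1 and vehicle 3 were low, and the other 4 arrays lay between 9.26 and 9.34. The difference was −0.01 ± 0.16 (SE), with a 95% interval of −0.39 to 0.36, and differences inside that interval cannot be told from none with these arrays. Its sign changed when 1 array was left out, from −0.117 without vehicle 3 to 0.116 without fluoxetine 1.

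Probe set 2 of Rps6ka5 read 7.41, 7.31 and 7.03 with fluoxetine and 7.32, 7.54 and 7.46 with vehicle. Fluoxetine 3 was lowest and the groups overlapped through fluoxetine 1, which was above vehicle 1. The difference was −0.18 ± 0.14 (log2, SE; 95% interval −0.51 to 0.14), or −0.075 without fluoxetine 3. Probe set 3 of Rps6ka5 was below the filter, at 3.18, 3.22 and 3.21 with fluoxetine and 3.18, 2.94 and 3.14 with vehicle.

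**Figure D2:**
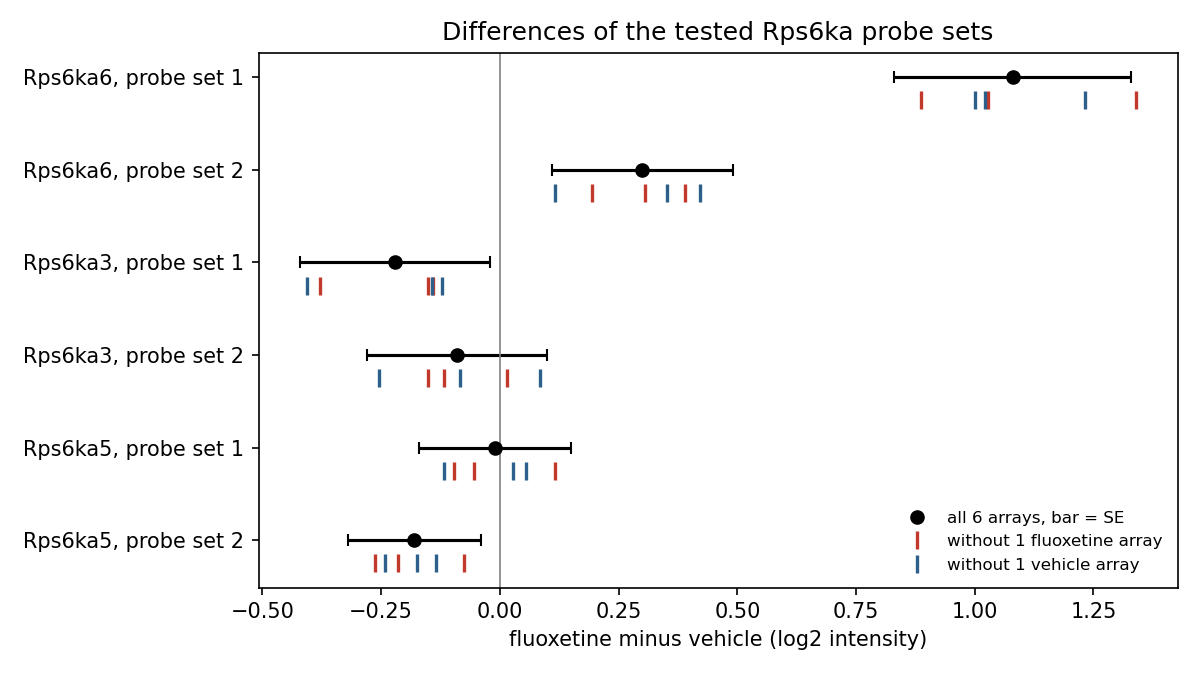
Fluoxetine minus vehicle in log2 intensity for the 6 tested Rps6ka probe sets (black points, all 6 arrays; bars, SE; ticks, the difference with 1 array left out, coloured by that array's group). Probe set 1 of Rps6ka6 stays between 0.887 and 1.339 whichever array is left out. Its groups do not overlap, so leaving out 1 array could not change its sign, and the family was chosen on it. The ticks of probe set 2 of Rps6ka3 and probe set 1 of Rps6ka5 lie on both sides of 0.

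In the comparison across the whole array, 6 of the 8 member probe sets passed the filter (a geometric mean of at least 50 over the 6 arrays), 2 of Rps6ka3, 2 of Rps6ka5 and 2 of Rps6ka6. Of these, 2 were higher and 4 lower with fluoxetine, and 0 were called by limma at a Benjamini-Hochberg adjusted p under 0.05. Nor was any probe set of the whole array called (0 of 22326, 0%). The smallest of their adjusted p-values was 0.999. Before adjustment 563 of the 22326 fell under 0.05, a share that is itself below 0.05. With limma's trend and robust variance estimates the number called was also 0. Groups did not overlap in 1 of the 6 tested members, beside 8.05% of all tested probe sets, and a difference of at least 1 in log2, which probe set 1 of Rps6ka6 reached, occurred in 35 of them (0.157%). Because the family was chosen on this contrast, nothing is read from these shares.

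On average, though not each singly, astrocyte markers varied among the fluoxetine arrays in the same order as probe set 1 of Rps6ka6. On the fluoxetine arrays probe set 1 of Rps6ka6 ran in the order array 1, array 3, array 2. The mean of the 12 astrocyte markers had the same order, at 11.70, 10.57 and 11.22 on fluoxetine arrays 1 to 3, against 10.64, 10.79 and 10.80 on the vehicle arrays (log2). Much of that spread was Gfap: over the 11 other markers the means were 11.66, 11.12 and 11.42 with fluoxetine, against 11.18, 11.30 and 11.27 with vehicle. Of the 12 markers, 7 showed this order singly, as did 28.5% of the 12248 tested genes, and 7 of the 12 were higher with fluoxetine. The dimmer probe set of Rps6ka6 did not have it, its order being array 1, array 2, array 3.

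Gfap, the astrocyte intermediate filament, read 12.13, 4.49 and 9.02 with fluoxetine and 4.70, 5.24 and 5.67 with vehicle. Aqp4, the astrocyte water channel, read 9.69, 7.44 and 9.11 with fluoxetine and 8.02, 8.20 and 8.04 with vehicle. On fluoxetine 2 both were below every vehicle array, while Rps6ka6 was above every one. Gja1, a gap junction protein of astrocytes, did not have that order, at 14.48, 14.59 and 14.45 with fluoxetine and 14.48, 14.74 and 14.77 with vehicle. Sox9, another of the 12 markers, read 8.89, 8.74 and 8.68 with fluoxetine and 8.17, 8.16 and 8.23 with vehicle. On fluoxetine 2 it was above every vehicle array, as Rps6ka6 was. Groups did not overlap in 1 of the 12 markers, Sox9, beside 8.05% of all tested probe sets. The summed intensity of the 12 markers was 65907 to 78165 with fluoxetine and 64479 to 72514 with vehicle. All 12 passed the filter over the 6 arrays, but Gfap did so only through fluoxetine 1 and fluoxetine 3. Its vehicle mean of 5.20 and its value on fluoxetine 2 lay under the filter (5.64 in log2), where values are dim.

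Oligodendrocyte lineage markers also had this order, with means over 9 genes of 10.05, 9.32 and 9.90 on the fluoxetine arrays and 9.72 to 9.82 on the vehicle arrays, and summed intensities of 17069 to 28774 with fluoxetine and 23820 to 26146 with vehicle. Of these 9 genes 5 showed it singly and 4 were higher with fluoxetine, and Mog and Olig2 were below the filter. The order was not confined to glial lists. Among the pathway lists described below, the p38 cascade had means of 9.75, 9.48 and 9.66 on fluoxetine arrays 1 to 3. Substrates had 11.06, 10.90 and 10.96, and partners and brakes 10.76, 10.64 and 10.68. The ERK cascade, related kinase and target gene lists did not have the order. With fluoxetine 1 and fluoxetine 3 left out, a choice made after seeing the data that assumes the lone fluoxetine array varies as the others do, probe set 1 of Rps6ka6 differed by 0.576 ± 0.236 (log2, SE), against 1.085 with all arrays, and probe set 2 of Rps6ka6 by 0.278 ± 0.280. Fluoxetine 1 and fluoxetine 3 were the 2 highest arrays for probe set 1 of Rps6ka6, so its difference had to shrink without them. The values of both probe sets rest on 1 fluoxetine array and on the measure that chose the family, and support nothing. The part of astrocyte or oligodendrocyte RNA in the Rps6ka6 difference was not tested.

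**Figure D3:**
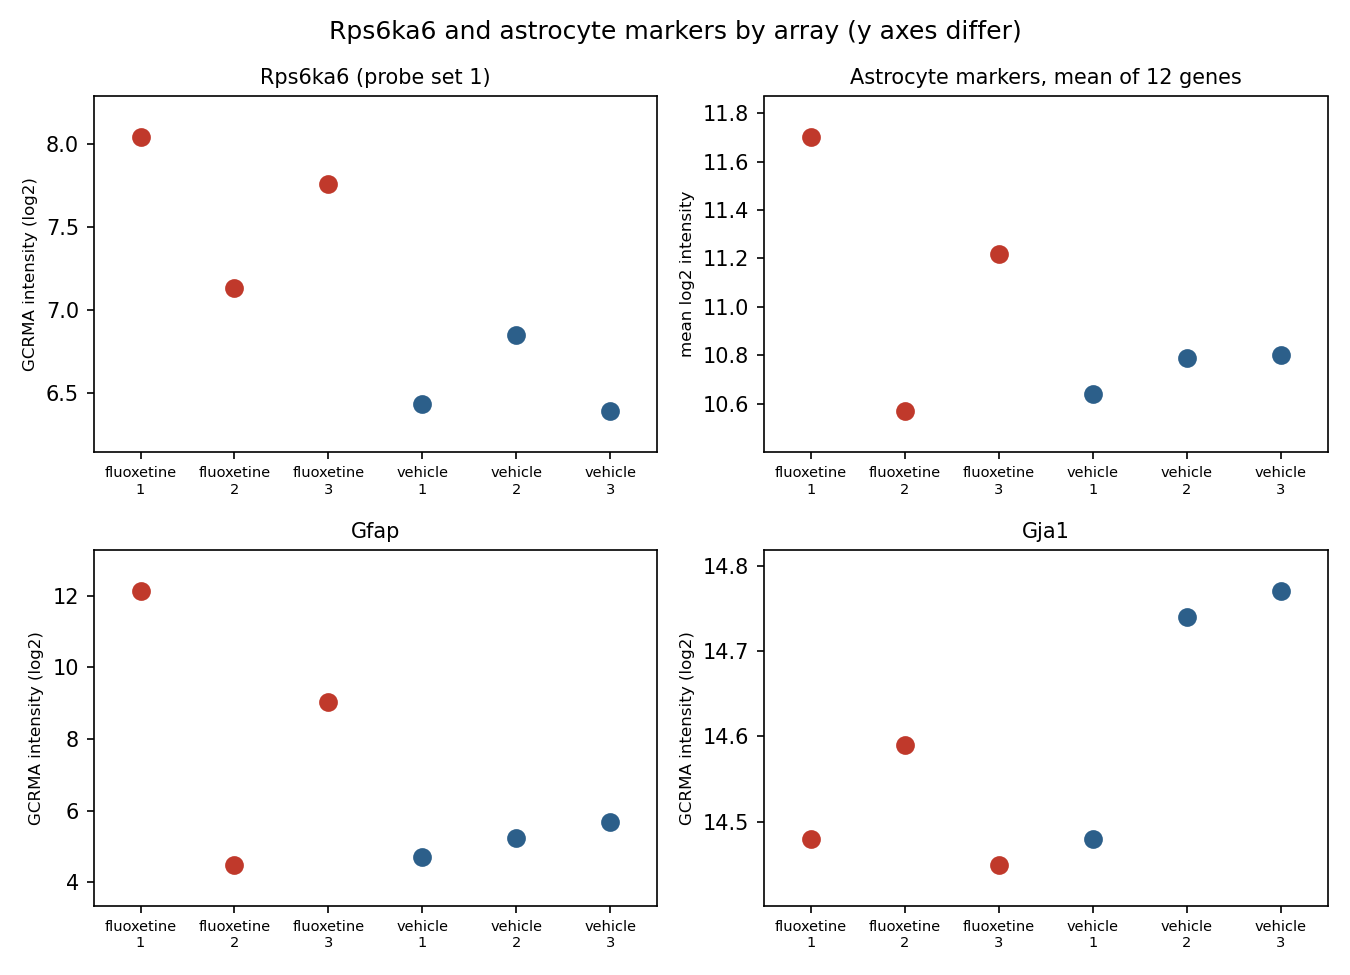
Log2 intensity on each array of Rps6ka6 (probe set 1), of the mean of 12 astrocyte markers, of Gfap and of Gja1 (red, fluoxetine; blue, vehicle; the y axes differ). Rps6ka6, the marker mean and Gfap are highest on fluoxetine 1 and next highest on fluoxetine 3, but on fluoxetine 2 the marker mean (10.57) and Gfap (4.49) are below all vehicle arrays and Rps6ka6 (7.13) is above them. Gfap on fluoxetine 2 and its vehicle mean (5.20) lie under the filter (5.64).

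Probe set 1 of Rps6ka5 was low on the same 2 arrays, 1 of each group, as the nuclear transcripts. Nuclear and non-coding transcripts, a list kept as a sign of RNA quality, averaged 7.19, 7.83 and 7.79 with fluoxetine and 8.03, 7.97 and 7.29 with vehicle (log2, 6 genes). Fluoxetine 1 and vehicle 3 were thus low for this list, as they were for probe set 1 of Rps6ka5. On both, probe set 1 of Rps6ka3 was low too, but it was lowest on fluoxetine 3, where the list was not low. Probe set 2 of Rps6ka5 was not low on either, at 7.41 and 7.46, and probe set 2 of Rps6ka3 was low on vehicle 3 (7.35) but not on fluoxetine 1 (7.74). Malat1, a long nuclear RNA, read 6.85, 8.91 and 9.25 with fluoxetine and 9.85, 8.85 and 6.99 with vehicle. Fluoxetine 1 and vehicle 3 were the 2 lowest arrays for 3 of the 6 list genes and for 9.65% of all tested genes.

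The summed intensity of the 6 nuclear transcripts was 885 to 1549 with fluoxetine and 965 to 2020 with vehicle, 1 of the 6 was higher with fluoxetine, and Mirg was below the filter. Without fluoxetine 1 and vehicle 3, also chosen after seeing the data, the differences were −0.335 ± 0.198 for probe set 1 of Rps6ka3 and 0.011 ± 0.142 for probe set 1 of Rps6ka5 (log2, SE). For Rps6ka6 they were 0.802 ± 0.263 by probe set 1 of Rps6ka6 and 0.013 ± 0.153 by probe set 2 of Rps6ka6. Both probe sets of Rps6ka6 had their highest fluoxetine and their lowest vehicle value on these 2 arrays, so both differences had to shrink without them. The part of RNA quality in these values was not tested.

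**Figure D4:**
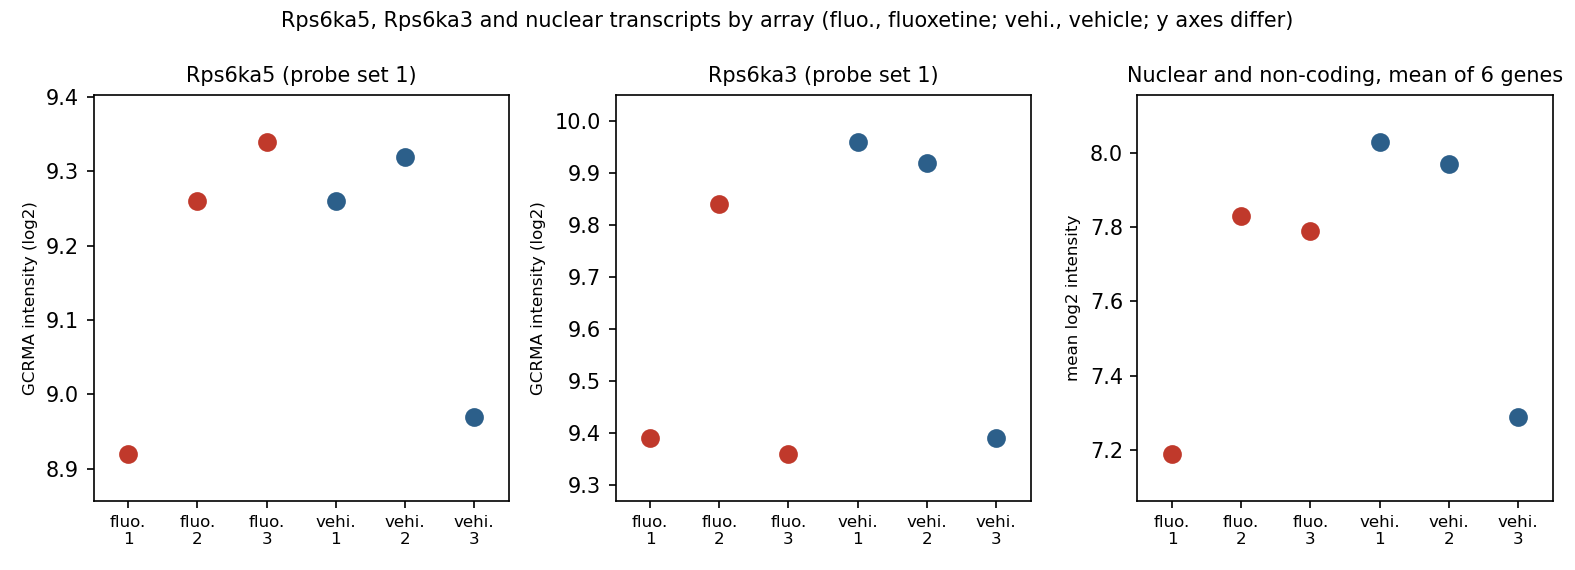
Log2 intensity on each array of Rps6ka5 (probe set 1), Rps6ka3 (probe set 1) and the mean of 6 nuclear and non-coding transcripts (red, fluoxetine; blue, vehicle; the y axes differ). Fluoxetine 1 and vehicle 3 are the lowest arrays for Rps6ka5 (8.92 and 8.97) and for the nuclear transcripts (7.19 and 7.29), and fluoxetine 3 joins them for Rps6ka3 (9.36).

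The genes most like each member over the 6 arrays were found among 19669 named probe sets by Pearson's r on log2 values, a description in which high values arise easily because 6 points are few and the probe sets many. For probe set 1 of Rps6ka6, 87 probe sets reached 0.9, and the leading ones were Srr, which encodes serine racemase (0.994), Fam122a (0.988) and Cp, the copper-carrying ferroxidase ceruloplasmin (0.987). Cp read 8.15, 7.43 and 8.05 with fluoxetine and 7.14, 7.38 and 7.11 with vehicle. Its order within the fluoxetine group was that of Rps6ka6, as a gene picked for so high an r nearly must have. Srr differed by only 0.19 and Fam122a by 0.23 in log2 between the groups.

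For probe set 1 of Rps6ka5, 551 probe sets reached 0.9, led by the GABA receptor subunit gene Gabra2 (0.997), Smim10l1 (0.996) and Zfp995 (0.994). Gabra2 was low on the same arrays as Rps6ka5, at 5.43 on fluoxetine 1 and 5.50 on vehicle 3, against 6.44 to 6.72 on the other 4 arrays. For probe set 1 of Rps6ka3, 183 reached 0.9, led by Mrpl50, a mitochondrial ribosomal protein gene (0.997), the glucocorticoid receptor gene Nr3c1 (0.991) and the sodium channel gene Scn2a (0.986). Nr3c1 read 10.97, 11.37 and 10.93 with fluoxetine and 11.50, 11.55 and 11.00 with vehicle.

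None of the tested genes that act above the RSK and MSK kinases passed the test. Of 17 genes of the ERK cascade 11 were tested, 3 higher and 8 lower with fluoxetine, with 0 called and a median difference of −0.08 in log2, beside −0.06 over all tested genes, of which 68.5% were lower. Map2k1 and Map2k2, the kinases that activate ERK, differed by −0.05 ± 0.13 and −0.19 ± 0.14 (log2, SE). Pdpk1, which encodes PDK1, differed by −0.08 ± 0.14.

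The p38 cascade, which feeds the MSK branch, had 11 of 11 genes tested, 4 higher and 7 lower, with 0 called and a median of −0.03. Mapk14, the main p38 kinase, read 12.99, 12.76 and 12.81 with fluoxetine and 12.94, 12.99 and 12.98 with vehicle, and Mapk11, the p38 beta gene, differed by 0.00 ± 0.14. Groups did not overlap in 0 of the 11 tested genes of each of these lists, beside 8.05% of all tested probe sets. After quantile normalization, which moved the median of all tested probe sets to −0.001, the p38 median was 0.044 and the ERK median −0.006. Without vehicle 2 the ERK median was −0.024. The p38 median was also above 0, at 0.026, without fluoxetine 2.

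Related kinases had 12 of 15 genes tested, 3 higher and 9 lower, with 0 called and a median of −0.05, or 0.019 after quantile normalization and −0.008 without fluoxetine 3. Groups did not overlap in 1 of the 12, beside 8.05% of all tested probe sets. That gene was Akt1, a kinase of the PI3K pathway, at −0.12. Rps6kb2, a p70 S6 kinase of the mTOR pathway, read 6.28, 6.13 and 5.73 with fluoxetine and 6.22, 6.15 and 6.20 with vehicle, and Rps6kb1 is not analysed here. Mapkapk2, a kinase downstream of p38, differed by 0.08 ± 0.14. Rps6kc1 and Rps6kl1, 2 further S6 kinase relatives, differed by −0.05 ± 0.17 and −0.11 ± 0.26 and overlapped between groups.

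Substrates of the kinases had 17 of 18 genes tested, 6 higher and 11 lower, with 0 called and a median of −0.11, or −0.016 without fluoxetine 2 and −0.038 without vehicle 2. Creb1, the CREB gene, read 10.99, 11.05 and 11.14 with fluoxetine and 11.14, 11.38 and 11.06 with vehicle, a difference of −0.13 ± 0.13 (log2, SE), and all 4 of its tested probe sets were lower. Rps6, the ribosomal protein that gave the family its name, differed by −0.18 ± 0.15, with its other probe set of opposite sign. Eif4b, a translation initiation factor, differed by 0.09 ± 0.10, Gsk3b, a kinase that RSK phosphorylates, by −0.07 ± 0.15, and Tsc2, a brake on mTOR, by −0.12 ± 0.18. Groups did not overlap in 2 of the 17, beside 8.05% of all tested probe sets. These were Eif4b and the transcription factor gene Srf, the latter at −0.20. Atf1 is not analysed here.

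Partners and brakes had 19 of 20 genes tested, 6 higher and 13 lower, with 0 called and a median of −0.13, or −0.067 without fluoxetine 2 and −0.059 after quantile normalization. Pea15a, whose protein holds ERK and RSK in the cytoplasm, differed by 0.04 ± 0.18. Dusp6, an ERK phosphatase, differed by −0.17 ± 0.13 and Spry2, an inhibitor of receptor signalling to ERK, by −0.13 ± 0.14. Groups did not overlap in 2 of the 19, beside 8.05% of all tested probe sets. These were the MAP kinase phosphatase genes Dusp5 and Dusp4, at −0.44 and −0.33. Their unadjusted p-values from limma were 0.0189 and 0.0308, with an adjusted p of 0.999 for both.

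Genes that CREB and the MSK kinases are known to induce had all 12 members tested, 1 higher and 11 lower, with 0 called and a median of −0.33, which lay between −0.431 (without fluoxetine 3) and −0.216 (without vehicle 2) in all 18 alternatives. The 1 higher gene was Bdnf, a neurotrophin, at 0.50 ± 0.32. The low median of such early response genes in these arrays was known when the list was drawn up and is no independent support. Fos read 13.60, 14.09 and 14.01 with fluoxetine and 14.18, 14.47 and 14.30 with vehicle, and Egr1 read 13.94, 14.00 and 14.31 with fluoxetine and 14.28, 14.54 and 14.31 with vehicle. Nr4a1 differed by −0.71 ± 0.28 (log2, SE), with all fluoxetine arrays below all vehicle arrays, as for Fos but not for Egr1. Of the 12 genes 4 did not overlap between groups, beside 8.05% of all tested probe sets, Ier2 and Nr4a2 being the others. None of the 12 passed the test, nor did any probe set of the array.

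**Figure D5:**
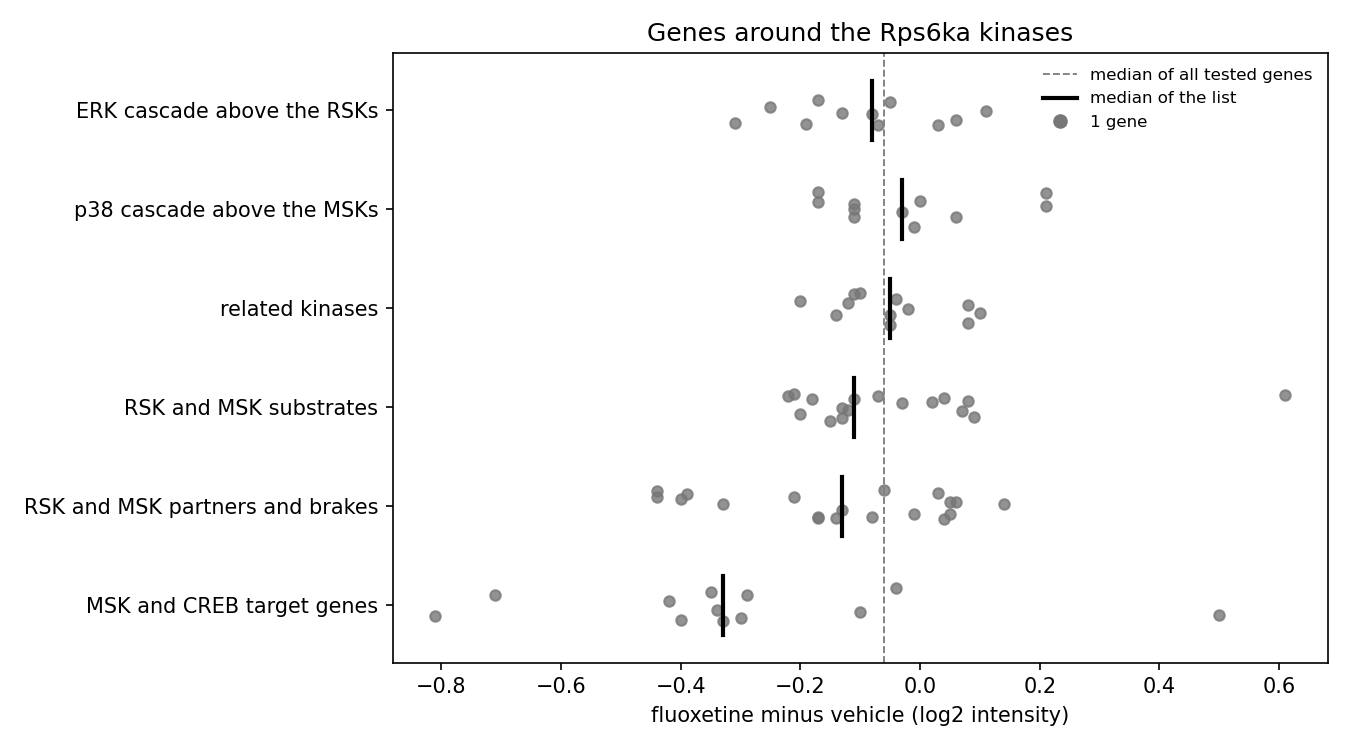
Fluoxetine minus vehicle in log2 intensity for each tested gene of 6 lists around the Rps6ka kinases (grey points, 1 gene each by its brightest probe set; black bars, list medians; dashed line, the median of all tested genes, −0.06). The upstream and related kinases lie around the dashed line (list medians −0.08 to −0.03), and the CREB and MSK target genes lie mostly left of it (median −0.33).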

How the data were processed

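The authors deposited 1 column of intensity per array, on a linear scale (read from the values' range). GCRMA, which the submitters' processing notes name without a version, made them. GCRMA models background from probe sequence and is meant to make the arrays' distributions alike. It squeezes dim values towards a floor. The deposited distributions were not fully alike: quantile normalization moved the median difference of all tested probe sets from −0.058 to −0.001 (log2). Scanner files were not analysed here, and all 6 sample columns were used. Genes were named from the platform annotation (34945 probe sets with 1 symbol, 932 with several, 9160 with none); Rps6ka symbols matched RefSeq.

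Values were taken to log2 without an offset. Probe sets with a geometric mean of at least 50 over the 6 arrays (22326, or 49.6%) were tested two-sided for fluoxetine minus vehicle by lmFit and eBayes of limma 3.58.1 (R 4.3.3), without a block. P-values were adjusted by Benjamini-Hochberg over all of them, with 0.05 as the threshold; values of members below the filter come from the same fit without it. Standard errors and 95% limits come from limma's variances, which are drawn towards a shared value. A gene in a list was represented by its brightest probe set. The fit was first tested on simulated data. Members and lists were chosen with earlier results of these data known. The genes named were all member probe sets, a listed set of pathway genes whatever their values, and for each member the 3 genes most correlated with its brightest probe set; Rps6kc1, Rps6kl1, Akt1, Srf, Dusp4, Dusp5, Ier2, Nr4a2, Bdnf and the marker, nuclear and sex-linked genes were picked after seeing their values. Deviations from the group means correlated at −0.25, −0.03 and −0.50 between arrays with the same replicate number. With so few arrays this cannot decide whether the numbers pair the samples. Promoters came from RefSeq (GRCm38.p6). Alternatives were other filters, an offset of 16, other scalings, a replicate block, other variance estimates, array weights and leaving out arrays.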

Additional observations from a re-analysis of the deposited data

How the results depend on the processing

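No probe set of the array and no list gene was called by limma under any of 18 alternatives, an adjusted p under 0.10 among them, nor with either pair of arrays left out, a choice made after seeing the data. The smallest adjusted p over the 18 was 0.742, without the filter. The number of tested Rps6ka probe sets higher with fluoxetine, 2 of 6, was 4 of 8 without the filter and 1 of 5 with a minimum of 100, because those settings change which members are tested. It was between 2 and 4 with 1 array left out (4 without vehicle 1) and 4 without fluoxetine 1 and fluoxetine 3. With the replicate block it remained 2. The labels give same-numbered arrays only a shared number, and the block changed no call. The difference of probe set 1 of Rps6ka6 was positive in all 17 alternatives that bear on it, from 0.887 without fluoxetine 1 to 1.339 without fluoxetine 2. Its groups did not overlap, so leaving out 1 array could not change its sign, and the family was chosen on it. The difference of probe set 2 of Rps6ka6 was positive in all 16 alternatives in which it was tested (0.116 to 0.422). Probe set 1 of Rps6ka3 and probe set 2 of Rps6ka5 were negative in all 17, but that of Rps6ka3 was 0.085 without fluoxetine 1 and fluoxetine 3. Probe set 2 of Rps6ka3 kept its sign in 15 of 17 and probe set 1 of Rps6ka5 in 12 of 17. Causes of these movements were not tested beyond the change in members. Dim signal limits probe set 2 of Rps6ka6 and probe set 3 of Rps6ka3 and of Rps6ka5.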
